A study of Mus musculus with 16 samples.

Results

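The transcripts described here are those of 10 genes of cardiomyocyte calcium handling, chosen by name: the pump of the sarcoplasmic reticulum (Atp2a2), its small regulators (Pln and Sln), the release channel (Ryr2), proteins that buffer calcium inside the store (Casq2 and Hrc), the protein that holds the store against the cell surface (Jph2), the surface exchanger (Slc8a1), the pore of the L-type channel (Cacna1c) and a calcium-dependent kinase (Camk2d). All 10 were found among the 55573 genes of the count table, and 9 of them, all but Sln, were among the 19955 genes with enough counts to be tested. RNA selected on oligo(dT), and so mostly polyadenylated, was sequenced from ventricle tissue of 16 males, in 4 groups of 4 separate hearts. Every mouse carried 2 floxed Trbp alleles and the αMHC-MerCreMer transgene, whose recombinase is made under a cardiomyocyte promoter and becomes active with tamoxifen. Control mice received corn oil and Trbp-cKO mice received tamoxifen at 30 mg/kg on 5 days, in both cases from the age of 4 weeks. At 4 weeks after the injections, mice of each kind underwent either transverse aortic constriction (TAC), which loads the left ventricle with pressure, or a sham operation, and the hearts were taken 8 weeks after surgery. Because no group had tamoxifen without the floxed alleles, exposure to tamoxifen and active recombinase cannot be told apart from loss of Trbp.

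At each heartbeat, calcium enters the cardiomyocyte through the L-type channel and opens the ryanodine receptor, so that a larger amount of calcium leaves the sarcoplasmic reticulum and the myofilaments contract. Relaxation follows when the SERCA2 pump, encoded by Atp2a2, returns calcium to the store and the sodium-calcium exchanger, encoded by Slc8a1, carries the remainder out of the cell. Phospholamban (Pln) restrains the pump until it is phosphorylated, and sarcolipin (Sln), mainly a protein of atria and skeletal muscle in rodents, does so in a related way.

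Phospholamban and sarcolipin are very short proteins, and their coding sequences are shown because one was among the most abundant of these transcripts and the other was close to absent. In GRCm38 the coding sequence of Pln is at chr10:53343864-53344022 on the plus strand, 159 bases for 52 codons before the stop, and that of Sln is at chr9:53853473-53853568 on the plus strand, 96 bases for 31 codons. Capitals mark the longest run of bases that both share, 8 bases in length.
Pln: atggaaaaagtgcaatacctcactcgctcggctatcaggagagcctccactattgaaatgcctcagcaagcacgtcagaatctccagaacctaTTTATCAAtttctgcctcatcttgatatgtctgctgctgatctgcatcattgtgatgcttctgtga
Sln: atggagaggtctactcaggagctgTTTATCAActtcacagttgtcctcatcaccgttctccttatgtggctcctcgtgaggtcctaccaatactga

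Promoter windows of 300 bases around an annotated start, most of them upstream of it, were taken from RefSeq (GRCm38.p6) for 8 of the 10 genes, all but Atp2a2 and Sln. Both strands were searched for a core of the sites bound by MEF2 factors, TATTTTTA, and for a core of GATA sites, GATAAG. The first was found in the windows of Casq2 and Slc8a1 and in 2.72% of all 32851 windows, and the second in those of Pln and Slc8a1 and in 7.44% of all windows. Capitals mark the MEF2 core in the windows of Casq2 (chr3:102086165-102086464, plus strand) and Slc8a1 (chr17:81738338-81738637, minus strand), and the GATA core in that of Pln (chr10:53337436-53337735, plus strand).
Casq2: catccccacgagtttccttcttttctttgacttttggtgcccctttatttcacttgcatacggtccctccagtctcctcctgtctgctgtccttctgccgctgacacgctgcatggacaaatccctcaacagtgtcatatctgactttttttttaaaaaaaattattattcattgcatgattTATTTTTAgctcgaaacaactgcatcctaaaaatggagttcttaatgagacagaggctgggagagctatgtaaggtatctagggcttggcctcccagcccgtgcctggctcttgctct
Slc8a1: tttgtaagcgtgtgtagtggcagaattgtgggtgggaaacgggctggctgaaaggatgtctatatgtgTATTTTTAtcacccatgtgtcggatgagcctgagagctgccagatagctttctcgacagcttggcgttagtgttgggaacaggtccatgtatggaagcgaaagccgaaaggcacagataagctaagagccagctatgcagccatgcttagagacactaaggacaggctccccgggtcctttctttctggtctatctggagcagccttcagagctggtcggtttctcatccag
Pln: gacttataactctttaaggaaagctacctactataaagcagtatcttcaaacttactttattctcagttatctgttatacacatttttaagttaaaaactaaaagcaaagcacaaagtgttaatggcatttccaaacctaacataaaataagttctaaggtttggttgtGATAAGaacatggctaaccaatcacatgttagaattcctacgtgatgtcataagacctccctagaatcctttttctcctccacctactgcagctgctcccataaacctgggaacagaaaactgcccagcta
These matches are a description of the letters and were not tested for binding.

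The libraries held between 45166994 and 68274222 counts. Levels are given in CPM, the usual unit of counts relative to the library total, here after TMM scaling between libraries. Tarbp2, the gene that encodes Trbp, was at 21.1 to 33.26 CPM in the 8 control hearts and at 7.138 to 11.42 CPM in the 8 Trbp-cKO hearts. Its log2 fold change in Trbp-cKO hearts was -1.76 after sham (SE 0.14, edgeR quasi-likelihood test, adjusted p = 2.38e-05) and -1.65 after TAC (SE 0.14, adjusted p = 1.17e-05). Ventricular identity was checked on markers. All 13 cardiomyocyte markers were present in every heart, with Tnnt2 between 3290 and 8730 CPM, and the atrial light chain gene Myl7 was at most 0.479 CPM. Atrial markers together were not at the same level in all groups: the summed level of the 4 tested was 24.6 to 39.1 CPM in the other 3 groups and 44.6 to 106 CPM in Trbp-cKO TAC hearts, with Dkk3 at up to 93.4 CPM. Of these 4, 2 passed the adjusted p as higher in Trbp-cKO TAC than in control TAC hearts, and 2 as higher and 1 as lower than in Trbp-cKO sham hearts, and their part in the results on Trbp-cKO TAC hearts was not tested. A few libraries stood apart. Transcripts of the mitochondrial chromosome took 38.2% and 38.8% of the counts in control TAC hearts 1 and 2 and 18.2% to 26.3% in the other 14. The summed level of the 13 cardiomyocyte markers was 18020 and 14780 CPM in those same hearts, 25680 CPM in Trbp-cKO TAC heart 4, 28860 CPM in Trbp-cKO sham heart 3, and 31340 to 37550 CPM in the other 12.

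Calcium handling transcripts were low in these same 4 hearts. Relative to the median of the control sham hearts, the median of the 9 tested genes was -1.64 and -1.74 on the log2 scale in control TAC hearts 1 and 2, -1.11 in Trbp-cKO TAC heart 4 and -0.57 in Trbp-cKO sham heart 3, and all 9 genes were below the control sham median in each of them. In the other 8 hearts outside the control sham group this median was between -0.36 and -0.03. The shift was unequal among the genes. In control TAC heart 2 it was -2.51 for Pln and -2.46 for Atp2a2, and -0.69 for Cacna1c and -0.58 for Camk2d. In Trbp-cKO TAC heart 4 it was -2.56 for Hrc and -2.28 for Atp2a2, and -0.20 for Slc8a1. The median of the 13 cardiomyocyte markers moved in the same direction by less, to -0.92, -1.17, -0.55 and -0.26 in the same order of hearts. Single markers differed: 12, 13, 10 and 9 of the 13 were below the control sham median. They ranged from -1.87 to 0.07, -1.90 to -0.19, -1.78 to 0.56 and -0.74 to 1.10. Markers of endothelium, summed over 5 genes, were 1179 and 1210 CPM in control TAC hearts 1 and 2 against 644.7 and 613.7 CPM in hearts 3 and 4, 973.7 CPM in Trbp-cKO sham heart 3 and 905.8 CPM in Trbp-cKO TAC heart 4. The part that tissue composition and the mitochondrial share have in the results was not tested, and in whole ventricle fewer cardiomyocytes and less RNA per cardiomyocyte cannot be told apart.

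**Figure D1:**
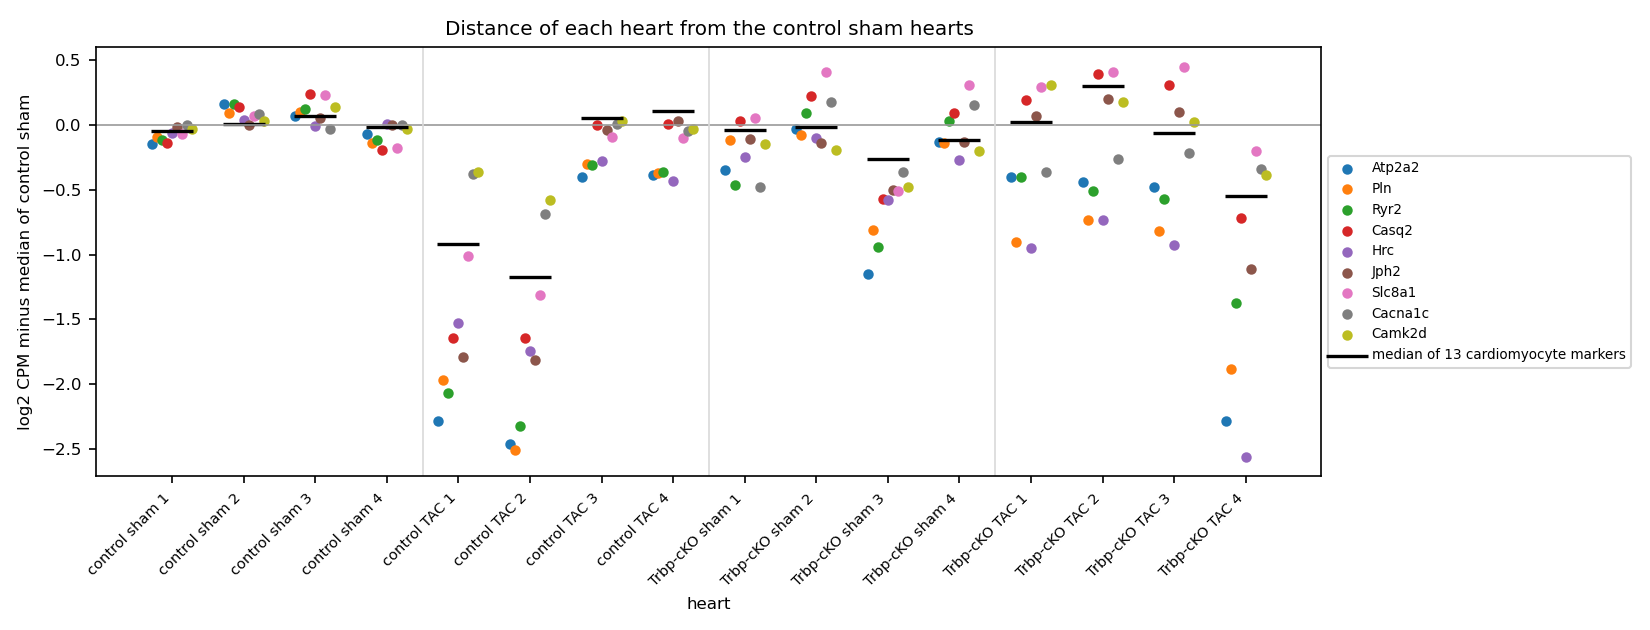
Each point is one gene in one heart, as its log2 CPM minus the median of the 4 control sham hearts, and each black bar is the median of 13 cardiomyocyte markers on the same scale. Control TAC hearts 1 and 2, Trbp-cKO sham heart 3 and Trbp-cKO TAC heart 4 have all 9 genes below 0, with medians of -1.64, -1.74, -0.57 and -1.11.

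Levels can be ordered between genes only per length of transcript. On that scale, CPM per kilobase of exon, the control sham hearts had 1510 ± 126 for Pln and 1350 ± 127 for Atp2a2 (SD, n = 4), and the hearts of these neighbours overlapped. Below them came Hrc at 331 ± 10.4, Casq2 at 195 ± 28.4, Jph2 at 103 ± 1.97 and Ryr2 at 37.5 ± 3.83, without overlap between neighbours. Slc8a1 at 12.8 ± 1.6 and Cacna1c at 11.4 ± 0.377 overlapped, and Camk2d was at 6.06 ± 0.338. Exon bases were counted once over all annotated transcripts of a gene, so genes with long or many alternative exons read lower on this scale.

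In control mice, the pump, its regulator phospholamban, the release channel and the store protein Hrc were lower in every TAC heart than in any sham heart. None of the 9 tested genes passed the adjusted p, and the control TAC hearts differed widely among themselves. Atp2a2 (chr5:122453513-122502225, minus strand) was at 7404, 9120, 8595 and 7801 CPM in the control sham hearts and at 1685, 1487, 6225 and 6264 CPM in the control TAC hearts. Every TAC heart was below every sham heart, and hearts 1 and 2 were far below hearts 3 and 4. The log2 fold change was -1.07 (SE 0.48, adjusted p = 0.17). Of the 50-base words of its transcripts, 3.31% also occur in Gm30970.

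Pln (chr10:53337667-53345987, plus strand), whose product slows the pump, followed the pump. Its values were 3939, 4462, 4482 and 3816 CPM after sham and 1071, 735.5, 3397 and 3251 CPM after TAC, again without overlap and with the same hearts lowest (log2 fold change -0.98, SE 0.41, adjusted p = 0.144). Of the exon bases of Pln, 64.7% lie under genes of the opposite strand, Cep85l and Gm47644, and Cep85l was at 15.71 to 34.39 CPM over all 16 hearts, against at least 735.5 CPM of Pln.

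Ryr2 (chr13:11553102-12106945, minus strand), the channel through which the store empties, was at 984.5, 1192, 1159 and 987.9 CPM after sham and at 254.8, 214.8, 862.5 and 836.2 CPM after TAC (log2 fold change -1.0, SE 0.40, adjusted p = 0.135). Hrc (chr7:45335290-45338974, plus strand), which binds calcium in the store and contacts the pump and the release complex, was at 815.7, 879, 845.3 and 859.1 CPM after sham and at 294.4, 255.2, 700.3 and 633.4 CPM after TAC (log2 fold change -0.85, SE 0.35, adjusted p = 0.144). For both genes the groups did not overlap.

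The remaining genes of the store and surface gave smaller differences with overlapping groups. Casq2 (chr3:102086415-102146514, plus strand), the main calcium buffer of the store, was at 167.6 and 168.4 CPM in control TAC hearts 1 and 2 and at 524.7 and 528.7 CPM in hearts 3 and 4, the latter inside the sham range of 458.7 to 618.6 CPM. Jph2 (chr2:163336242-163397993, minus strand), which ties the store to the surface membrane, was at 125.6, 124.5, 423.8 and 446 CPM against a sham range of 430.3 to 449.6 CPM. The log2 fold changes were -0.62 for Casq2, -0.65 for Jph2, -0.55 for Slc8a1, -0.27 for Cacna1c and -0.24 for Camk2d, with adjusted p from 0.199 to 0.325.

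Cacna1c (chr6:118587240-119196418, minus strand), through whose product calcium enters at each beat, had overlapping groups throughout. It was at 238.9, 253.4, 235.1 and 240 CPM in control sham hearts and at 183.8, 148.8, 240.8 and 230.7 CPM in control TAC hearts, where hearts 1 and 2 were again the lowest. The Trbp-cKO mice had 171.9, 271.8, 186.2 and 265.1 CPM after sham and 187, 200.7, 205.9 and 189.3 CPM after TAC. The log2 fold changes between genotypes were -0.11 after sham (adjusted p = 0.856) and -0.04 after TAC (adjusted p = 0.92). Slc8a1 was at 227.3, 249, 279.5 and 209.5 CPM in control sham hearts, and control TAC hearts 3 and 4, at 222.8 and 221.9 CPM, were inside that range. Camk2d was at 104.1, 89.54, 136.4 and 131.4 CPM in control TAC hearts, and hearts 3 and 4 were inside the control sham range of 130.9 to 147.2 CPM.

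By the edgeR quasi-likelihood test with Benjamini-Hochberg adjustment over all 19955 genes, 0 of the 9 genes passed an adjusted p of 0.05 when TAC was compared with sham in control mice, where 6.29% of all genes tested did. At an unadjusted p under 0.05 there were 4 of 9 (26.6% of all genes). DESeq2 and the edgeR exact test also gave 0, where they called 12.6% and 7.57% of all genes. The median log2 fold change of the 9 was -0.64, and that of all genes was 0.02. In 4 of the 9 (Atp2a2, Pln, Ryr2 and Hrc) every TAC heart was below every sham heart, which held for 8.78% of all genes tested. Markers of other cells differed too: 4 of 7 of fibroblasts and 4 of 4 of activated fibroblasts passed as higher. Of 4 smooth muscle markers 1 passed as lower, while the median log2 fold change of the 4 was 0.34. Their summed level was 208 to 346 CPM after sham and 130 to 187 CPM after TAC. Acta2, at 81.4 to 757 CPM over the 16 hearts, was the highest of the 4 and weighs most in that sum. Of 4 atrial markers 1 passed as higher and 1 as lower. The part of these markers in the result was not tested. Without the libraries with over 30% mitochondrial counts, which are control TAC hearts 1 and 2, the fold changes were -0.40 for Atp2a2, -0.33 for Pln, -0.35 for Ryr2, -0.35 for Hrc, -0.02 for Casq2, -0.01 for Jph2, -0.12 for Slc8a1, -0.04 for Cacna1c and -0.03 for Camk2d, with adjusted p of at least 0.798 for all 9.

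**Figure D2:**
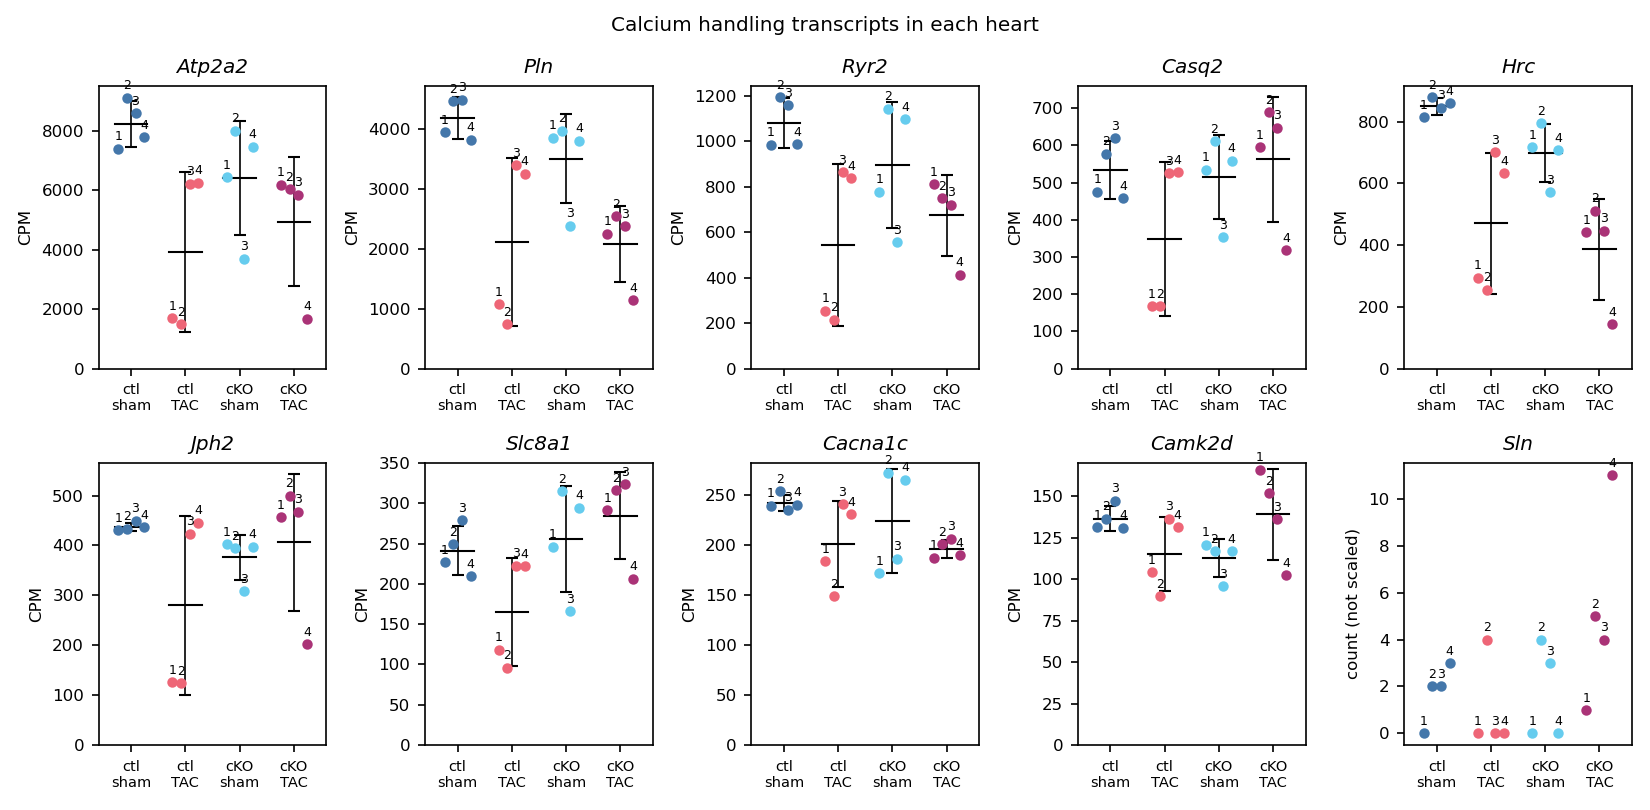
Each point is one heart, labelled with its replicate number, in CPM scaled by TMM for 9 genes and as an unscaled count for Sln, and black lines give the group mean and SD. Control TAC hearts 1 and 2 lie apart from 3 and 4 for Atp2a2 (1685 and 1487 against 6225 and 6264 CPM), while Sln has at most 11 counts in any heart.

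The spread between hearts differed by group in the same way. Over the 9 genes the median coefficient of variation was 8.31% for control mice after sham and 59.6% after TAC, and for Trbp-cKO mice 21.8% after sham and 29.8% after TAC. For all 1177 genes with a mean of at least 100 CPM it was 6.05%, 26.6%, 12.9% and 17.4% in the same order. In the control TAC group the highest Atp2a2 value was 4.21 times the lowest, and that of Pln 4.62 times.

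Sln (chr9:53850164-53854560, plus strand) was close to absent. It had 39 counts in all 16 hearts together, 0 in 6 of them and at most 11 in any heart (Trbp-cKO TAC heart 4, 0.191 CPM without scaling). In the hearts with 0 counts, up to 3 counts could have gone unseen, 0.046 to 0.066 CPM, a limit for counting error only. The group sums were 7 and 4 counts in control mice after sham and TAC, and 7 and 21 counts in Trbp-cKO mice. Sln did not pass the filter on low counts. Without that filter it passed in no comparison (adjusted p of 0.468 to 1), and its fitted log2 fold change between the genotypes after TAC, which depends on the prior count, was 2.09 (adjusted p = 0.468). The planned ratio of Sln to Atp2a2 was not formed.

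The deletion without pressure load was asked about by comparing Trbp-cKO sham with control sham hearts. Pln was close to the control values in 3 of the 4 Trbp-cKO sham hearts and lower in heart 3. The pump was inside the control sham range in hearts 2 and 4, below it in heart 1 and lowest in heart 3. Atp2a2 was at 6435, 8011, 3701 and 7471 CPM (log2 fold change -0.36, SE 0.47, adjusted p = 0.827), and Pln was at 3849, 3965, 2385 and 3798 CPM (-0.26, SE 0.40, adjusted p = 0.866). Both groups overlapped for each gene. Without Trbp-cKO sham heart 3 the values were -0.17 for Atp2a2 and -0.11 for Pln.

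Hrc, Jph2 and Camk2d were lower in every Trbp-cKO sham heart than in any control sham heart. For Hrc these were 717.1, 796.2, 570.6 and 707 CPM, and for Jph2 402.7, 394.9, 308.9 and 397.6 CPM. Camk2d (chr3:126596302-126846326, plus strand), the main cardiac form of the kinase that phosphorylates the release channel and phospholamban, was at 120.8, 117, 95.84 and 116.7 CPM, while the control sham hearts were at 131.1, 136.4, 147.2 and 130.9 CPM. These 3 of 9 genes stand beside 6.96% of all genes tested that were likewise lower without overlap. The differences were small, -0.28 for Hrc, -0.22 for Jph2 and -0.28 for Camk2d on the log2 scale (-0.20, -0.14 and -0.21 without Trbp-cKO sham heart 3). Here 0 of the 9 passed the adjusted p, where 1.68% of all genes did (0 of 9 at an unadjusted p under 0.05, 13.7% of all genes). DESeq2 and the edgeR exact test also gave 0 of 9, where they called 4.62% and 8.69% of all genes. A score of circadian clock genes, in units of its SD over the hearts, was 0.79 to 1.76 in the control sham and -1.25 to -1.04 in the Trbp-cKO sham hearts, and its part in these differences was not tested. It was -0.54 to 0.03 in control TAC and -0.70 to 1.33 in Trbp-cKO TAC hearts, so TAC and sham hearts of each genotype did not overlap in it either. With the score as a covariate 0 of all 19955 genes passed in this comparison, so the 0 calls among the 9 genes there say nothing of the members. Summed markers of smooth muscle were 208 to 346 CPM in control sham and 444 to 672 CPM in Trbp-cKO sham hearts, and those of fibroblasts 786 to 931 CPM and 1070 to 1290 CPM. For 1 of 4 smooth muscle and 1 of 7 fibroblast markers the difference passed the adjusted p, and their part in these differences was not tested.

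A comparison of the genotypes after TAC asks whether the loaded hearts differed. The exchanger gave the largest difference. Slc8a1 (chr17:81373105-81738377, minus strand) was at 118.3, 96.12, 222.8 and 221.9 CPM in control TAC and at 291.8, 316.4, 324.1 and 206.4 CPM in Trbp-cKO TAC hearts. Hearts 1 to 3 of the Trbp-cKO TAC group were above all control TAC hearts, and heart 4 was below control TAC hearts 3 and 4. The log2 fold change was 0.79 (SE 0.27, unadjusted p = 0.00984, edgeR adjusted p = 0.0988). It passed the adjusted p with library size as the only scaling (0.92, adjusted p = 0.0401), with DESeq2 (0.79, adjusted p = 0.0413) and without control TAC heart 4 (0.97, adjusted p = 0.0495), and over the 20 alternatives run the adjusted p ranged from 0.0401 to 0.48. Without the libraries with over 30% mitochondrial counts the value was 0.34 (adjusted p = 0.48).

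Casq2 was at 595.8, 688.6, 647.6 and 317.4 CPM in Trbp-cKO TAC hearts, 0.70 above control TAC on the log2 scale (SE 0.36, adjusted p = 0.285), and Jph2 was at 456.4, 500, 467.7 and 201.6 CPM (0.54, SE 0.38, adjusted p = 0.437). Both had overlapping groups, and without the libraries with over 30% mitochondrial counts they were 0.08 and -0.11. Hrc differed by -0.28 (SE 0.35, adjusted p = 0.682). Atp2a2, at 6190, 6044, 5855 and 1680 CPM, differed by 0.34 (95% interval -0.67 to 1.34), and Pln, at 2247, 2536, 2377 and 1140 CPM, by -0.03 (95% interval -0.88 to 0.83). Without the same libraries the values were -0.80 for Hrc (unadjusted p = 0.0285, adjusted p = 0.209), -0.69 for Pln (unadjusted p = 0.0217, adjusted p = 0.183) and -0.35 for Atp2a2 (adjusted p = 0.712). Those libraries are control TAC hearts 1 and 2, the lowest of their group for Hrc, Pln and Atp2a2. Leaving them out was chosen after seeing the data, and only control TAC hearts 3 and 4 remain. No conclusion is drawn from these p.

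Across the 9 genes, 0 passed the adjusted p in this comparison (5.53% of all genes did), 1 had an unadjusted p under 0.05 (21.4% of all genes). DESeq2 gave 1 of 9 where it called 10.6% of all genes, and the edgeR exact test gave 0 where it called 2.83%. For 0 of 9 genes was every Trbp-cKO TAC heart below every control TAC heart, against 3.93% of all genes. The median log2 fold change of the 9 was 0.31, and that of all genes was -0.01. Smooth muscle markers were 130 to 187 CPM in control TAC and 394 to 835 CPM in Trbp-cKO TAC hearts (2 of 4 passed as higher). Of the other markers, 3 of 7 of fibroblasts, 3 of 4 of activated fibroblasts (227 to 738 CPM against 801 to 2360 CPM summed) and 1 of 4 of skeletal muscle passed as higher, and the part of these cell types in the result was not tested.

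Within Trbp-cKO mice, the store protein Hrc was lower in every TAC heart than in any sham heart, with 0 of the 9 tested genes past the adjusted p. Hrc was at 442.4, 512.1, 446.8 and 144.8 CPM after TAC, below all Trbp-cKO sham hearts (log2 fold change -0.85, SE 0.35, unadjusted p = 0.0289, adjusted p = 0.155). It is the 1 gene of 9 without overlap in this direction, beside 8.14% of all genes. In the same comparison 3 of 13 cardiomyocyte markers passed as lower, while the median log2 fold change of the 13 was 0.09. Of the other markers, 3 of 7 of fibroblasts, 4 of 4 of activated fibroblasts and 2 of 4 of smooth muscle passed as higher. The part of these markers was not tested. Pln differed by -0.75 (SE 0.41, adjusted p = 0.295), its Trbp-cKO TAC heart 2 lying above Trbp-cKO sham heart 3. Atp2a2 differed by -0.37 and Ryr2 by -0.41. Casq2 differed by 0.13, Jph2 by 0.11, Slc8a1 by 0.15, Camk2d by 0.30 and Cacna1c by -0.19, with adjusted p of at least 0.271 for these 7 genes. In Trbp-cKO TAC hearts 1, 2 and 3 the genes fell on either side of the control sham median in the same way: Casq2, Jph2, Slc8a1 and Camk2d were 0.02 to 0.45 above it on the log2 scale, and Atp2a2, Pln, Ryr2, Hrc and Cacna1c were below it, Hrc by -0.95, -0.73 and -0.93. In heart 4 all 9 were below it.

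In this comparison 0 of 9 genes passed the adjusted p, where 9.94% of all genes did, and 1 had an unadjusted p under 0.05 (23% of all genes). DESeq2 gave 0 (13.9% of all genes). The edgeR exact test gave 1, which was Pln (-0.76, adjusted p = 0.0441), where it called 12.3% of all genes. Scaling to the cardiomyocyte markers gave 1, which was Hrc (-0.79, adjusted p = 0.035), where 4.61% of all genes passed. Without Trbp-cKO TAC heart 4 the differences were -0.58 for Hrc, -0.55 for Pln, -0.23 for Ryr2 and -0.09 for Atp2a2.

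The interaction tests whether the difference between the genotypes depends on surgery. For 0 of 9 genes did it pass the adjusted p (1.05% of all genes did), 1 had an unadjusted p under 0.05 (15.4% of all genes) and DESeq2 gave 0 (4.48% of all genes). The gene with the low unadjusted p was Camk2d, lower in Trbp-cKO than control hearts after sham (-0.28) and higher after TAC (0.27), with an interaction of 0.55 (SE 0.22, unadjusted p = 0.0266, adjusted p = 0.253). The interaction of Slc8a1 was 0.71 (SE 0.38, adjusted p = 0.391) and that of Hrc was 0.00 (SE 0.49, adjusted p = 1). With control TAC hearts 1 and 2 left out, the interaction was 0.33 for Camk2d (unadjusted p = 0.142, adjusted p = 0.591), 0.27 for Slc8a1 (adjusted p = 0.805) and -0.51 for Hrc (adjusted p = 0.714). It turned for Pln, from 0.23 to -0.43, for Ryr2, from 0.59 to -0.06, and for Cacna1c, from 0.07 to -0.16.

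**Figure D3:**
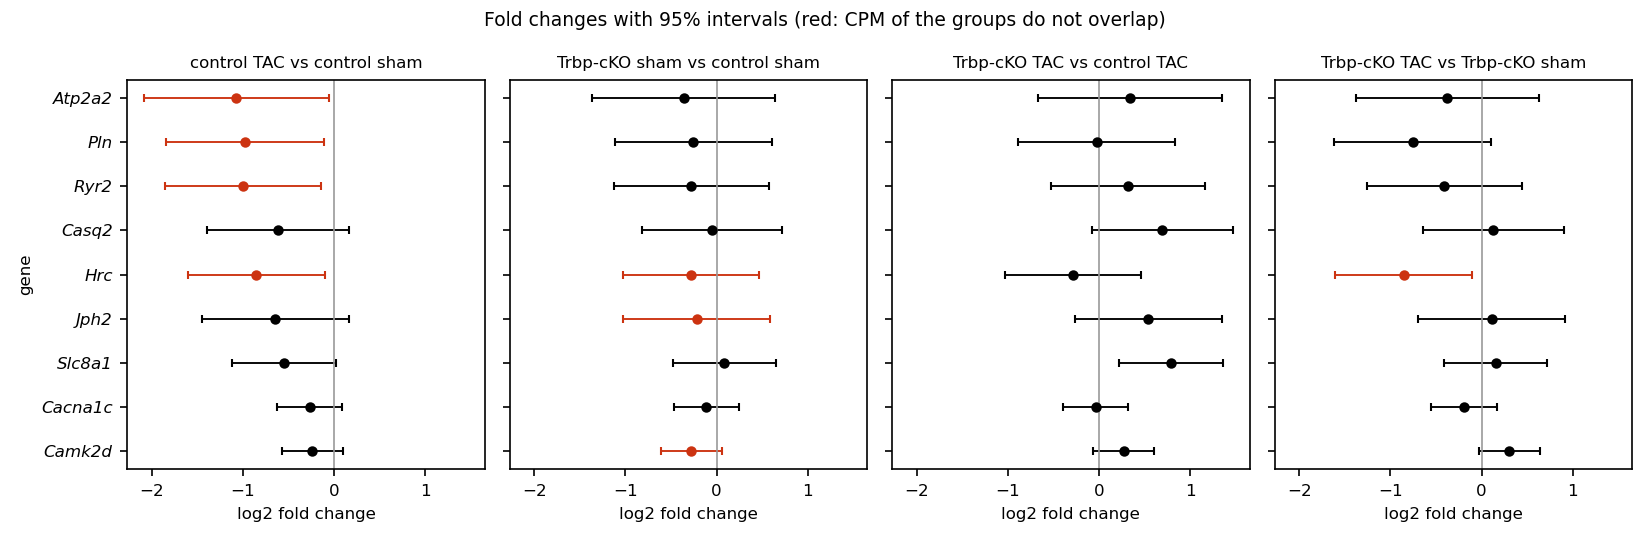
Points are log2 fold changes from the edgeR fit of all 16 hearts with 95% intervals, one panel for each pair of groups, and red marks genes whose CPM do not overlap between the groups. None of the 9 genes passed the adjusted p in any panel, and the lowest adjusted p was 0.0988, for Slc8a1 between the genotypes after TAC.

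The ratio of 2 transcripts within a heart does not depend on how the libraries were scaled, and it was formed for the exchanger against the pump, which compete for cytosolic calcium, and for phospholamban against the pump. Slc8a1 minus Atp2a2 log2 CPM was -5.03, -5.20, -4.94 and -5.22 in control sham hearts and -4.71, -4.67, -4.47 and -4.66 in Trbp-cKO sham hearts. After TAC the control hearts were at -3.83, -3.95, -4.80 and -4.82 and the Trbp-cKO hearts at -4.41, -4.26, -4.17 and -3.02. The control sham hearts had the lowest values of all, so that the exchanger was higher relative to the pump in every heart of the other 3 groups.

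The difference in this ratio was 0.74 between control TAC and control sham, 0.47 between Trbp-cKO sham and control sham, and 0.66 between Trbp-cKO TAC and Trbp-cKO sham hearts. In each of these 3 comparisons the groups did not overlap, and the two-sided exact permutation test gave p = 0.0286, the smallest that 4 hearts against 4 allow. Over the 8 comparisons made for the 2 ratios the adjusted p was 0.0763 for each of the 3, which does not pass. Between Trbp-cKO TAC and control TAC hearts the difference was 0.39 (exact p = 0.4, adjusted p = 0.4), and 0.07 without Trbp-cKO TAC heart 4 (exact p = 0.771). These comparisons share groups and are not independent. The ratios were chosen with earlier results of these data known, which the exact and adjusted p do not take into account. Without the libraries with over 30% mitochondrial counts the difference between control TAC and control sham was 0.28 (exact p = 0.133, 2 hearts against 4, which cannot reach 0.05) and that between the TAC groups was 0.85 (exact p = 0.2). Without Trbp-cKO TAC heart 4 the difference between the Trbp-cKO groups was 0.35 (exact p = 0.0571).

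Pln minus Atp2a2 log2 CPM was -0.98 ± 0.063 in control mice after sham and -0.87 ± 0.157 after TAC, and in Trbp-cKO mice -0.84 ± 0.184 after sham and -1.14 ± 0.400 after TAC (SD, n = 4). In control TAC hearts 1 to 4 it was -0.65, -1.01, -0.87 and -0.95, while the pump itself differed 4.21-fold between them. In Trbp-cKO TAC hearts 1, 2 and 3 it was -1.46, -1.25 and -1.30, below all 12 hearts of the other groups, and in heart 4 it was -0.56, the highest of all 16. The 4 differences between groups were 0.11, 0.14, -0.27 and -0.30, with exact p from 0.2 to 0.286 and adjusted p of 0.327. Without Trbp-cKO TAC heart 4 the last 2 were -0.47 and -0.50, each with an exact permutation p of 0.0286 before any adjustment. That heart had the highest value of all 16, and this was known, so no conclusion is drawn from these p.

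**Figure D4:**
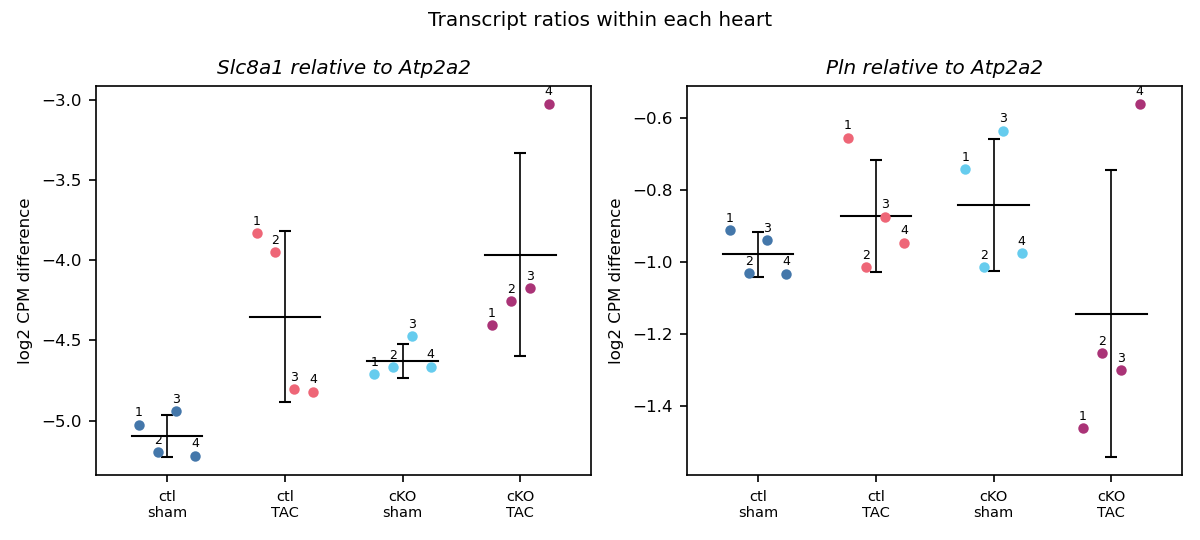
Each point is the difference of 2 log2 CPM values within one heart, labelled with its replicate number, with group means and SD as black lines. The exchanger relative to the pump is lowest in the control sham hearts (-5.22 to -4.94), and phospholamban relative to the pump is lowest in Trbp-cKO TAC hearts 1, 2 and 3.

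The genes whose log2 CPM followed the members most closely over the 16 hearts were named among 8739 genes with a mean of at least 10 CPM. For Atp2a2 they were Mto1, Tarsl2 and Ccdc85c, each with Pearson's r = 0.991 (0.979, 0.984 and 0.979 without the 2 hearts farthest from the median). For Pln they were Acat1 (r = 0.993), Etfa (0.992) and Ivd (0.991), which encode mitochondrial enzymes. The points share their libraries and the 4 low hearts, so the values describe these hearts only.

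A wider list of 85 genes of calcium handling, in 7 roles, was counted in the same fit, and 84 of them were tested. Between TAC and sham in control mice 3 of 84 passed the adjusted p as higher and 4 as lower, where 4.09% of all genes were higher and 2.2% lower. Between the genotypes after sham 0 were higher in Trbp-cKO hearts (1.02% of all genes) and 2 lower (0.666%). The genotypes after TAC gave 3 higher (3.88%) and 2 lower (1.65%), and TAC within Trbp-cKO mice gave 2 higher (6.02%) and 5 lower (3.92%). In the interaction 1 was higher (0.591%) and 1 lower (0.456%). None of the 7 genes of dyad and T-tubule organization, the 11 of sarcolemmal extrusion or the 10 of mitochondrial and store-operated entry passed in any comparison. Of all genes, 1.05% to 9.94% passed in these comparisons. Each of these roles had 0 to 2 genes at an unadjusted p under 0.05 in a comparison, as had 13.7% to 26.6% of all genes. Lists this short cannot show whether these roles differ from other genes. Without the libraries with over 30% mitochondrial counts 0 of the wider list passed between TAC and sham in control mice, where 0.716% of all genes did. With the clock score as a covariate 0 passed in that comparison as well, where 1.62% of all genes did. The calls of Atp2a1, Cacng6 and Ryr3 in control hearts, given below, were therefore lost under both settings.

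By the rule of an adjusted p of 0.05 and a log2 fold change of at least 0.8 in either direction, 7 genes of the wider list are named. Strit1, listed in the annotation as Gm34302, encodes a micropeptide that relieves the pump from its inhibitors. In control mice it was at 3.19, 2.89, 2.22 and 3.9 CPM after sham and 1.24, 1.56, 2.1 and 1.79 CPM after TAC. In Trbp-cKO mice it was at 0.523, 0.485, 0.527 and 0.877 CPM after sham and 0.0598, 0.109, 0.132 and 0 CPM after TAC. All Trbp-cKO hearts were below all control hearts. The log2 fold change was -2.33 after sham (SE 0.37, adjusted p = 0.00555), -4.41 after TAC (SE 0.45, adjusted p = 7.88e-05) and -2.94 between the Trbp-cKO groups (SE 0.46, adjusted p = 0.000835). The Trbp-cKO TAC hearts held 0 to 9 counts of Strit1, so the size of the last 2 values depends on the prior count of the fit. The call after TAC held in all 20 alternatives run (adjusted p up to 0.0182), and the call after sham was lost with the clock score as a covariate (-2.69, adjusted p = 0.412), where 0 of all genes passed.

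Rcan1, an inhibitor of the calcium-activated phosphatase calcineurin, was at 159, 147, 164 and 172 CPM in control sham and 175, 201, 137 and 180 CPM in control TAC hearts. The Trbp-cKO mice had 71.7, 86.5, 67.3 and 73.3 CPM after sham and 294, 350, 492 and 160 CPM after TAC. It was lower in all Trbp-cKO sham hearts than in any control heart and higher in Trbp-cKO TAC hearts 1, 2 and 3 than in any heart of another group. The log2 fold change was -1.10 after sham (SE 0.24, adjusted p = 0.0322), 0.90 after TAC (SE 0.24, adjusted p = 0.0395) and 2.12 between the Trbp-cKO groups (SE 0.25, adjusted p = 7.54e-05), with an interaction of 2.00 (SE 0.34, adjusted p = 0.0122). The value between the Trbp-cKO groups passed in all 19 alternatives run, that after sham in 8 of 19 and that after TAC in 7 of 20. Leaving out any one of the 8 sham hearts ended the call after sham (adjusted p of 0.0603 to 0.095), and leaving out control TAC heart 1, 2 or 3 or Trbp-cKO TAC heart 1, 2 or 3 ended that after TAC (0.058 to 0.124).

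The other 5 genes were at 13.8 CPM or less in every heart. Atp2a1, the pump of fast skeletal muscle, was lower after TAC in control (-1.53, SE 0.41, adjusted p = 0.0394) and Trbp-cKO hearts (-1.6, SE 0.41, adjusted p = 0.0219), from means of 0.814 and 0.76 CPM. The first call was lost without any one control heart other than control TAC heart 3 (adjusted p of 0.0519 to 0.12), and the second without Trbp-cKO sham heart 2 or 4 or Trbp-cKO TAC heart 1 (0.0506 to 0.0685). Cacng6, a gamma subunit of calcium channels, was lower after TAC in control (-1.77, SE 0.42, adjusted p = 0.0254) and Trbp-cKO hearts (-3.16, SE 0.44, adjusted p = 0.000315), with 0.2 ± 0.0914 CPM left in the latter. The call in control hearts was lost without any one control sham heart and without control TAC heart 1 or 2 (adjusted p of 0.0551 to 0.0911), and that in Trbp-cKO hearts held without each heart in turn. Mrln, a micropeptide that inhibits the skeletal pump, was lower after TAC in Trbp-cKO hearts (-1.51, SE 0.35, adjusted p = 0.0126), from a mean of 0.912 to 0.318 CPM. In control hearts it differed by -1.10 (SE 0.35, adjusted p = 0.0725), from a mean of 0.72 to 0.335 CPM. The call in Trbp-cKO hearts was lost in 2 of the 18 alternatives run (adjusted p up to 0.219).

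Ryr3, a minor ryanodine receptor in the heart, was higher in control TAC hearts (1.94, SE 0.45, adjusted p = 0.023), at 11.2, 7.65, 3.18 and 3.12 CPM against 1.46 to 1.99 CPM after sham, highest in the 2 hearts with the high mitochondrial share. This call, too, was lost without any one control sham heart and without control TAC heart 1 or 2 (adjusted p of 0.0529 to 0.0899), and without both of these TAC hearts the value was 0.94 (adjusted p = 0.444). Rem1, a small GTPase that restrains L-type channels, had an interaction of -1.16 (SE 0.24, adjusted p = 0.0352), at 6.76 ± 1.07 and 10.3 ± 2.73 CPM in control sham and TAC and 9.54 ± 1.46 and 6.52 ± 0.361 CPM in Trbp-cKO sham and TAC hearts. It was lost in 10 of the 16 fits that leave out 1 heart (adjusted p of 0.0536 to 0.0863): control sham 1, 3 and 4, control TAC 1 and 2, Trbp-cKO sham 3 and 4, and Trbp-cKO TAC 1, 2 and 3. Markers of other cells differed in these TAC comparisons. Of 7 fibroblast markers 4 passed as higher after TAC in control mice (median log2 fold change 0.76) and 3 in Trbp-cKO mice (0.19). Of the 4 activated fibroblast markers 4 passed as higher after TAC in control mice and 4 in Trbp-cKO mice. Their summed level was 49.1 to 62.4 CPM after sham and 227 to 738 CPM after TAC in control mice, and 87.4 to 129 CPM and 801 to 2360 CPM in Trbp-cKO mice. Their part in these results was not tested.

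**Figure D5:**
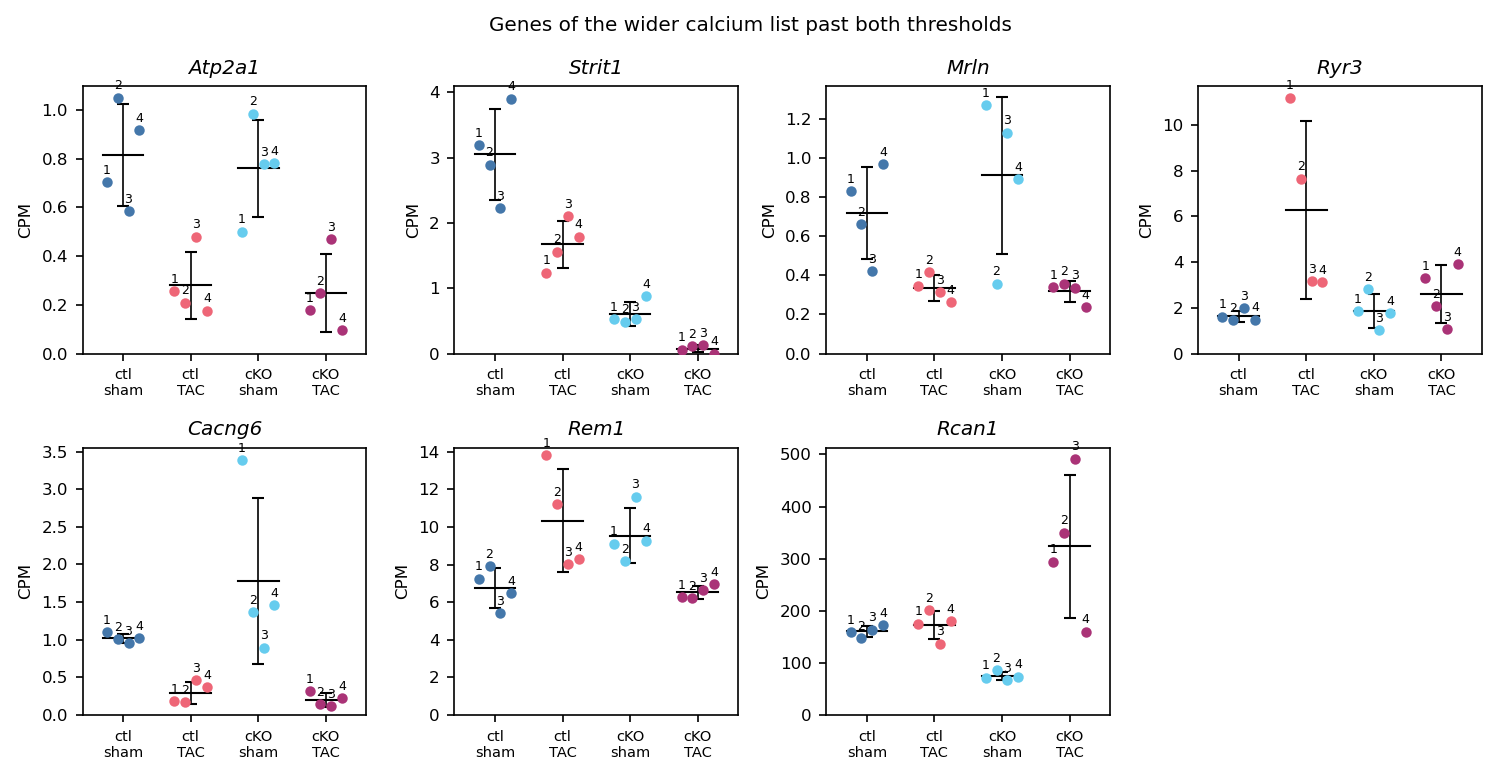
Each point is one heart in TMM-scaled CPM, labelled with its replicate number, for the 7 genes of the wider list past both thresholds in at least 1 comparison, with group means and SD as black lines. Strit1 is lower in all Trbp-cKO hearts than in all control hearts, and Rcan1 is 67.3 to 86.5 CPM in Trbp-cKO sham and 160 to 492 CPM in Trbp-cKO TAC hearts.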

How the data were processed

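Per the labels and the study's methods, total RNA of fresh ventricles went through 2 rounds of oligo(dT) selection and was sequenced as paired reads. The reads were trimmed with cutadapt 2.3, aligned to GRCm38 with HISAT2 2.1.0 and assembled with StringTie 1.3.4. The deposited values are raw gene counts, made by the authors with StringTie's own script without normalization. Its read length setting is not given in the sources used here, so counts may exceed fragments by a common factor and were also tried divided by 2. How the counting used strand is not given there either. Sequencing was described for 4 biological replicates a group.

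Counts were tested with edgeR 4.0.16 in R 4.3.3: default filter on the groups, TMM scaling, and a robust quasi-likelihood model in which each of the 4 groups had its own mean. Adjusted p are Benjamini-Hochberg values over 19955 genes, with thresholds of 0.05 and 0.8 on the absolute log2 fold change for named genes of the wider list. CPM use TMM library sizes. Ratios used exact permutation of hearts. Gene positions are GENCODE M21. Coding sequences came from the same annotation. The test was also tried on simulated counts, on which no result given here rests. DESeq2 1.42.0 was an alternative, beside other scalings, filters, covariates, the replicate block and each heart left out. The 10 genes, the wider list and the ratios were chosen with earlier results of these data known. All 10 were to be named, with genes of the wider list past both thresholds, the 3 genes most correlated with Atp2a2, Pln and Sln, and Tarbp2. Sln was too low for this.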

Additional observations from a re-analysis of the deposited data

Results flagged for a closer look

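In groups of 4 hearts, 6 of 44 sets of values had one heart far from the other 3 by Dixon's criterion, which chance meets in about 1 in 20. The gap as a share of the group's range was 0.926 for Atp2a2 CPM and 0.854 for Jph2 CPM in Trbp-cKO TAC hearts, where heart 4 was low at 1680 and 201.6 CPM, and 0.832 for Slc8a1 minus Atp2a2 log2 CPM, where the same heart was high at -3.02. In Trbp-cKO sham hearts, heart 3 was low, with a share of 0.894 for Pln (2385 CPM), 0.917 for Jph2 (308.9 CPM) and 0.836 for Camk2d (95.84 CPM). These sets come from the same 2 hearts and are not independent.

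The genotype difference depended on surgery, by the interaction in the edgeR fit, for Rem1 (-1.16 on the log2 scale, adjusted p = 0.0352) and Rcan1 (2.00, adjusted p = 0.0122). Over the 26 alternatives run, the first passed in 12 and the second in 23.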

How the results depend on the processing

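Below, the comparisons are TAC against sham within control or within Trbp-cKO mice, and Trbp-cKO against control after sham or after TAC. In TAC within control, in the genotypes after sham and in the interaction, 0 of the 9 genes passed under any alternative run. For the genotypes after TAC the count of 0 became 1 with library size only, with DESeq2 and, among hearts left out in turn (0 to 1), without control TAC heart 4, where 10.2%, 10.6% and 7.84% of all genes passed. For TAC within Trbp-cKO it became 1 with scaling to cardiomyocyte markers and with the edgeR exact test. Of 754 alternative values of the members' log2 fold changes, in these 4 comparisons and for the interactions of Slc8a1 and Camk2d, 730 kept their direction and 24 turned, none of these past the adjusted p. Scaling to cardiomyocyte markers put the median of all genes at 0.55 for TAC within control (0.02 with TMM) and -0.35 for the genotypes after TAC (-0.01 with TMM), and gave 0.163 for Cacna1c and 0.197 for Camk2d in the former and -0.032 for Camk2d in the latter. Library size only put that median at 0.11 and 0.13 in the genotype comparisons (0.01 and -0.01 with TMM) and gave 0.046 for Casq2 after sham, and 0.092 for Pln and 0.096 for Cacna1c after TAC. The clock score gave -0.226 for Slc8a1 in the genotypes after sham, 0.137 for Pln in those after TAC and 0.068 for Atp2a2 in TAC within Trbp-cKO. Without the libraries with over 30% mitochondrial counts, tried only once the data had been seen (chosen after seeing the data), the genotypes after TAC gave -0.348 for Atp2a2, -0.346 for Ryr2 and -0.109 for Jph2. Leaving out a heart turned Casq2 (-0.14 to 0.094) and Slc8a1 (-0.033 to 0.24) in the genotypes after sham, Pln (-0.32 to 0.291) and Cacna1c (-0.17 to 0.053) in those after TAC, and Casq2 (-0.016 to 0.32), Jph2 (-0.004 to 0.34) and Slc8a1 (-0.005 to 0.28) in TAC within Trbp-cKO. The cause of these turns was not tested. Over all alternatives the wider list gave 0 to 6, 0 to 5, 0 to 7, 2 to 5 and 0 to 2 higher and 0 to 8, 0 to 5, 1 to 4, 2 to 8 and 0 to 2 lower genes in TAC within control, the genotypes after sham and after TAC, TAC within Trbp-cKO and the interaction, while all genes gave 149 to 2871, 0 to 1652, 96 to 2107, 596 to 2777 and 1 to 894 calls.

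For Slc8a1 minus Atp2a2, leaving out a heart gave 0.571 to 0.90 for TAC within control, where the exact p was 0.0857 to 0.114 without any one of the control sham hearts. It gave 0.349 to 0.809 for TAC within Trbp-cKO, where p was 0.0571 to 0.0857 without any one of the Trbp-cKO sham hearts or without Trbp-cKO TAC heart 4. With the libraries with over 30% mitochondrial counts left out, TAC within control gave 0.284 (exact p = 0.133). For Pln minus Atp2a2, leaving out a heart gave -0.467 to -0.166 in the genotypes after TAC and -0.497 to -0.196 in TAC within Trbp-cKO. Without Trbp-cKO TAC heart 4 the exact p was 0.0286 in both, against 0.286 and 0.2 with all hearts. For Slc8a1 minus Atp2a2 in the genotypes after TAC it gave 0.072 to 0.559. The ratio of Sln to Atp2a2 was not computed.

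Replicate numbers did not pair the hearts: deviations of hearts with the same number correlated by -0.427 to 0.21. With the replicate block the members again gave 0 calls, all genes gave 511 calls in place of 1256 for TAC within control, and Pln in the genotypes after TAC was 0.048. The Slc8a1 to Atp2a2 differences of 0.744, 0.468 and 0.662 then had an exact p of 0.125, the smallest that 4 pairs allow. Depth limits what the data show of Sln (0 to 11 counts in a heart) and of Strit1 in Trbp-cKO TAC hearts (0 to 9 counts).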
